A study of Mus musculus with 7 samples.

Results

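Genes that license and unwind DNA replication origins were examined in lung endothelium from mouse embryos at E18.5. The 10 genes were picked by symbol, as Mcm2, Mcm3, Mcm4, Mcm5, Mcm6, Mcm7, Mcm10, Gins1, Cdc45 and Cdc6, out of 22180 genes that had a probe set carrying exactly 1 symbol. Each of the 10 had 1 such probe set. Gins1 was the only member that encodes a GINS subunit, and Cdc6 and Cdc45 belong to neither the MCM nor the GINS family. Cells came from Sash1-/- embryos or wild-type littermates with a C57BL/6 background, and were viable cells sorted for CD31, an endothelial surface protein, and against CD45 (leukocytes) and CD326 (epithelium). There were 3 arrays with the label wild-type and 4 with the label Sash1-knockout, 1 array per sample. The labels name no promoter or Cre driver and give the embryo's genotype as Sash1-/-, so the loss is not described as limited to endothelium. Nothing stated that the samples came from separate embryos or litters, so the p-values measure the spread among these samples, part of which may be technical.

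Before a cell copies its DNA, the origin recognition complex, CDC6 and CDT1 load a ring of the MCM proteins 2 to 7 onto each origin, which is called licensing. The ring stays inactive until kinases bring in CDC45 and the GINS complex, and the active helicase then unwinds DNA ahead of the polymerases. MCM10 helps to start that unwinding and, in spite of its name, is no part of the ring. Transcription of these genes is driven by E2F factors in cycling cells and is shut off in resting cells, so their transcripts are widely read as markers of proliferation. In a bulk sample, more cycling cells and more transcript per cycling cell cannot be told apart. Fetal lung endothelium grows as the capillary bed expands.

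All signals are log2 values that the authors normalized, in which 1 unit is a factor of 2, and a difference is the mean of the knockout-labelled arrays minus that of the wild-type-labelled arrays. Sash1, the deleted gene, was at 9.02, 8.73 and 8.33 on wild-type-labelled arrays 1 to 3 and at 8.29, 8.21, 8.68 and 8.13 on knockout-labelled arrays 1 to 4. Wild-type-labelled array 3 thus lay among the knockout-labelled values and knockout-labelled array 3 near wild-type-labelled array 2, so arrays are named by their labels, and every direction below rests on those labels. Which part of the gene was removed is not given in the labels, and signal from a probe set outside the deletion would check nothing. Endothelial markers were high on each array, with a mean over 8 genes of 10.18 to 10.44, against array medians of 5.3 to 5.41 over all tested genes. The number of arrays limited the precision, since a gene's difference had a median 95% confidence interval of 0.345 to either side.

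The licensing genes had higher mean signals on the knockout-labelled arrays in 10 of 10 members, but none of the differences passed the test. The differences ran from 0.05 for Mcm10 to 0.46 for Mcm2 and had a median of 0.28. The median over all 16637 tested genes was 0.02, and 54.4% of them had a positive difference. The members were chosen with earlier results of these data known, so this comparison only describes them. MCM and GINS relatives outside the set differed by 0.16 (Mcm8), -0.21 (Mcm9), 0.10 (Gins2), -0.06 (Gins3) and 0.24 (Gins4). Of the members 0 passed an adjusted p of 0.05 (limma with Benjamini-Hochberg adjustment), as did 0% of all tested genes. Limma's unadjusted p was under 0.05 for 1 member, Mcm2, against 3.34% of tested genes in either direction and 2.38% higher on knockout-labelled arrays. That unadjusted p was 0.0533 with quantile normalization, 0.0706 without variance moderation and 0.0871 with the replicate block as fixed terms. It was 0.137 without wild-type-labelled array 1, 0.0789 without wild-type-labelled array 2, 0.0806 without knockout-labelled array 2 and 0.0738 without knockout-labelled array 4. In the other alternative fits it stayed under 0.05, from 0.0261 without wild-type-labelled array 3 to 0.0461 with the replicate block as a random effect. In 0 members did the labels fail to overlap, against 2.45% of tested genes in either direction and 1.77% with higher knockout-labelled values.

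The 6 subunits of the helicase ring are described first. Mcm2 was at 5.49, 5.78 and 5.99 on wild-type-labelled arrays 1, 2 and 3, and at 5.99, 6.28, 6.02 and 6.58 on knockout-labelled arrays 1 to 4. The labels overlapped only through wild-type-labelled array 3, which equalled the lowest knockout-labelled value to 2 decimals. The difference was 0.46 (SE 0.18, 95% confidence interval 0.03 to 0.89), a 1.38-fold ratio, with limma's unadjusted p at 0.0379 and its adjusted p at 0.971.

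Mcm4 showed a similar picture, at 5.89, 6.28 and 6.41 on the wild-type-labelled arrays and 6.31, 6.8, 6.37 and 6.94 on the knockout-labelled ones. Here 2 of the knockout-labelled values lay below wild-type-labelled array 3. Its difference was 0.41 (SE 0.20, 95% confidence interval -0.06 to 0.88), and limma's adjusted p was 0.971. Mcm6 was at 7.02, 7.4 and 7.67 against 7.55, 7.79, 7.43 and 8.03, a difference of 0.34 (-0.13 to 0.80). Wild-type-labelled array 3 exceeded knockout-labelled arrays 1 and 3 for this gene.

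Mcm3, Mcm5 and Mcm7 overlapped more widely. Mcm5 was at 5.03, 5.59 and 5.6 on the wild-type-labelled arrays and 4.99, 6.08, 5.35 and 6.49 on the knockout-labelled arrays, so the latter held both its lowest and its highest value. Its SD was 0.68 among the 4 knockout-labelled arrays and 0.33 among the 3 wild-type-labelled arrays, and its difference was 0.32 (95% confidence interval -0.54 to 1.19). Mcm3 was at 6.43, 6.73 and 6.73 against 6.5, 6.98, 6.68 and 6.99, with a difference of 0.16 (-0.20 to 0.52). Mcm7 was at 5.27, 5.46 and 5.59 against 5.45, 5.82, 5.22 and 5.84, with a difference of 0.14 (-0.27 to 0.56). For Mcm7 knockout-labelled array 3 was the lowest of all. Another 2 probe sets for Mcm7 also carried the symbols of microRNA genes hosted by it and were not used.

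**Figure D1:**
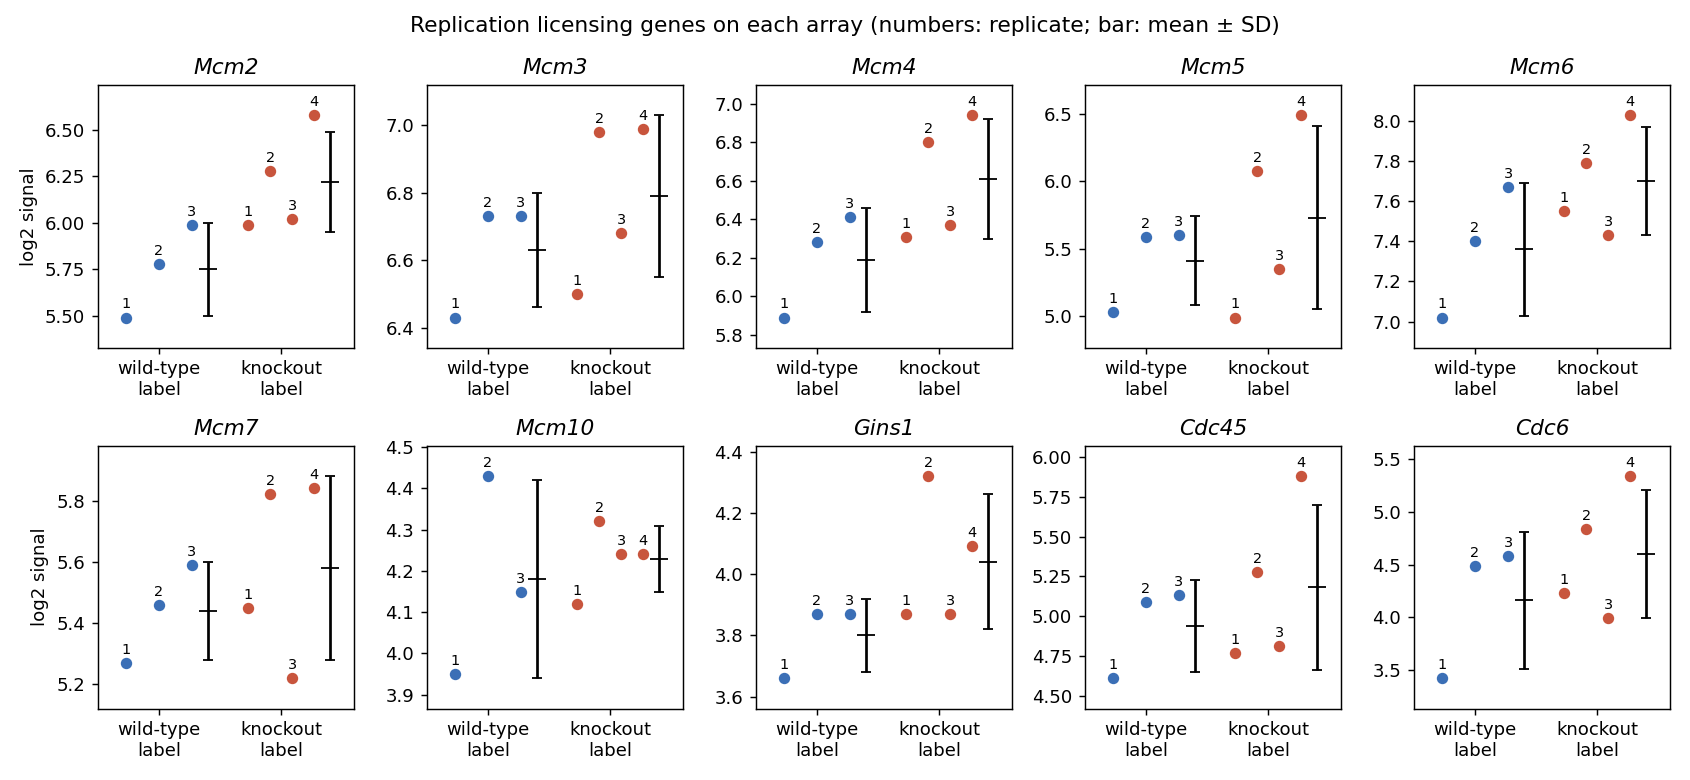
Log2 signal of each of the 10 genes (vertical axes, a separate scale per gene that does not start at 0) on the wild-type-labelled arrays (blue, n = 3) and knockout-labelled arrays (red, n = 4), with replicate numbers beside the points and black bars for the mean ± SD. Wild-type-labelled array 1 was lowest for 8 of the genes and knockout-labelled array 4 highest for 8, and the labels overlap in every panel.

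Cdc6, the ATPase that loads the ring, varied most among the members, with an SD of 0.62 over the 7 arrays. Its signal was 3.42, 4.49 and 4.58 on the wild-type-labelled arrays and 4.23, 4.84, 3.99 and 5.34 on the knockout-labelled arrays. Wild-type-labelled array 1 stood 1.92 below knockout-labelled array 4, while the other two wild-type-labelled arrays lay above knockout-labelled arrays 1 and 3. The difference was 0.44 (SE 0.40, 95% confidence interval -0.51 to 1.39; limma adjusted p = 0.971).

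Cdc45, which joins the ring when an origin fires, was at 4.61, 5.09 and 5.13 against 4.77, 5.28, 4.81 and 5.88, a difference of 0.24 (95% confidence interval -0.44 to 0.92). Only knockout-labelled arrays 2 and 4 exceeded the wild-type-labelled values. Gins1, a subunit of the GINS complex, was at 3.66, 3.87 and 3.87 against 3.87, 4.32, 3.87 and 4.09, a difference of 0.24 (-0.08 to 0.56). It had the same value, 3.87, on 4 of the 7 arrays. Mcm10 was at 3.95, 4.43 and 4.15 against 4.12, 4.32, 4.24 and 4.24, and its wild-type-labelled arrays held both extremes. Its difference was 0.05 (-0.24 to 0.35; limma adjusted p = 0.985).

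Arrays differed in much the same way for most of the members. The average over the members ranged more widely within each label than it differed between labels. The mean of the 10 genes was 5.08, 5.51 and 5.57 on wild-type-labelled arrays 1, 2 and 3, and 5.38, 5.85, 5.4 and 6.04 on knockout-labelled arrays 1 to 4. This mean spanned 0.50 among the wild-type-labelled arrays and 0.66 among the knockout-labelled ones, against a difference of 0.28 between the labels. All 10 genes were above their own 7-array mean on knockout-labelled arrays 2 and 4, and 0 were above it on wild-type-labelled array 1 and knockout-labelled array 1. Of all tested genes, 14.7% were lowest on wild-type-labelled array 1 and 16.4% highest on knockout-labelled array 4. Both held together for 6 of the 10 members and for 2.98% of tested genes.

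The members did not follow their common course equally closely. Set against the average of the other 9 after centring each gene on its own mean, Mcm4 lay nearest, with a root mean square distance of 0.0786 log2 units over the 7 arrays, followed by Mcm6 (0.102) and Mcm2 (0.13). Mcm3 (0.134), Mcm7 (0.142), Cdc45 (0.158) and Gins1 (0.182) came next. Cdc6 lay farthest, at 0.321, and it had the widest range of the 10. Mcm10, at 0.268, lay on the same side of its mean as the others on 4 of 7 arrays, while Mcm6 and Mcm7 did so on all 7.

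Leaving out single arrays moved these differences. The median over the members was 0.10 without wild-type-labelled array 1, 0.14 without knockout-labelled array 4, and 0.40 without knockout-labelled array 3. Mcm2 lay between 0.33 and 0.58, and Mcm4 between 0.26 and 0.52, over all 7 omissions. Cdc6 went from 0.44 to 0.06, and Mcm6 from 0.34 to 0.16, without wild-type-labelled array 1. Cdc45 went from 0.24 to 0.01, and Mcm5 from 0.32 to 0.07, without knockout-labelled array 4. Mcm3 ranged from 0.06 to 0.25, Mcm7 from 0.06 to 0.26 and Gins1 from 0.14 to 0.29 over the 7 omissions. Mcm10 turned to -0.06 without wild-type-labelled array 1. Without both arrays numbered 3, those with Sash1 values against their labels, the median was 0.50, the difference of Mcm2 was 0.65 and that of Cdc6 was 0.85, and 0 members passed.

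**Figure D2:**
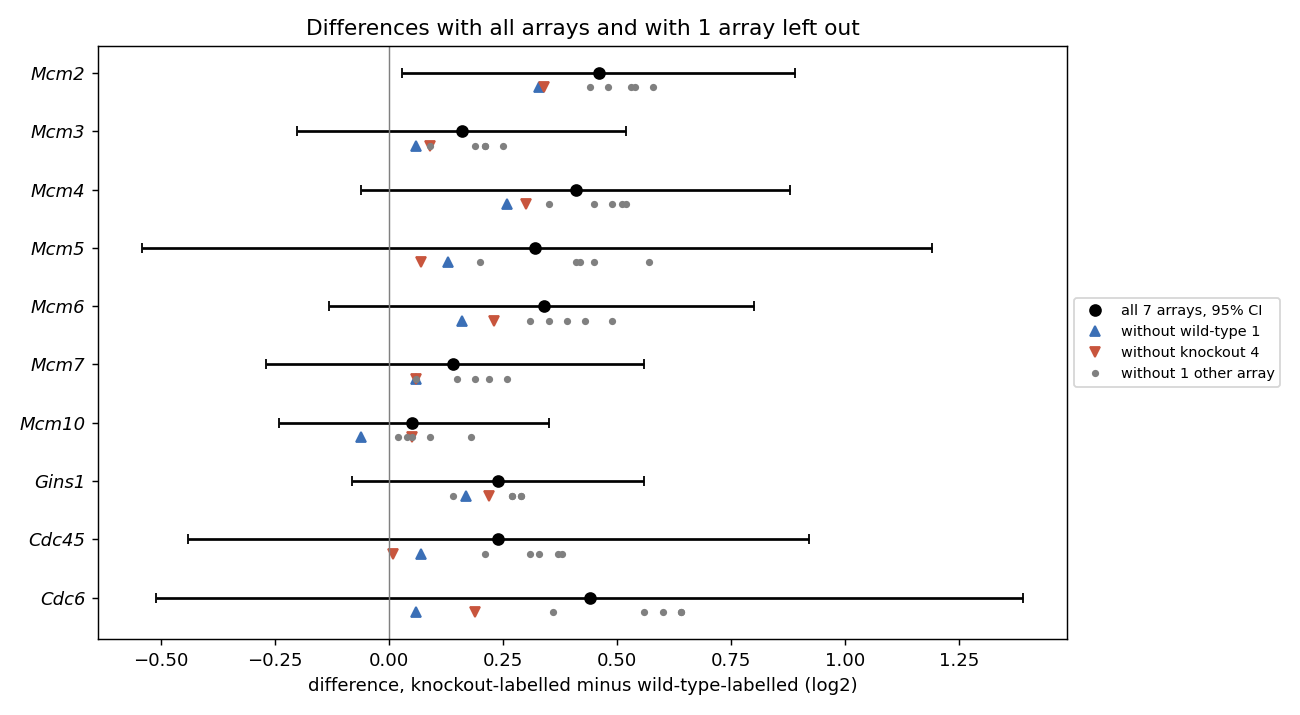
Difference in log2 signal between labels (horizontal axis, knockout-labelled minus wild-type-labelled) for each gene, with black points and bars for all 7 arrays and the 95% confidence interval of limma, and smaller marks for the fits that omit 1 array. The interval leaves out 0 for Mcm2 alone, and the omission of wild-type-labelled array 1 (blue) brings Cdc6 to 0.06 and Mcm10 to -0.06.

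Promoter sequence is shown because most of the members shared their course over the arrays and E2F factors are textbook regulators of these genes. RefSeq windows of 300 bases on GRCm38.p6, from 250 bases before to 50 bases after the annotated start, were found for 8 of the 10 members, with Mcm4 and Gins1 named only. They were searched on both strands for the 4 words TTTCGCGC, TTTGGCGC, TTTCCCGC and TTTGCCGC, which are forms of the E2F consensus. At least 1 word was present in 5 of the 8 members, Mcm3, Mcm5, Mcm6, Mcm7 and Cdc6. These 8 members had 9 windows, of which 5 held a word, against 2.26% of all 32851 windows. Mcm7 had 2 windows, and the one at chr5:138171217-138171516 held 0 words. The 250 bases before the start are printed 5′ to 3′ on the gene's strand with the words in capitals, for Mcm5 and Mcm6 because their words overlap on opposite strands, for Cdc6 as the loader with the widest range, and for Mcm2 as the member with the largest difference and no word in its window.
Mcm5, chr8:75109259-75109508, plus strand: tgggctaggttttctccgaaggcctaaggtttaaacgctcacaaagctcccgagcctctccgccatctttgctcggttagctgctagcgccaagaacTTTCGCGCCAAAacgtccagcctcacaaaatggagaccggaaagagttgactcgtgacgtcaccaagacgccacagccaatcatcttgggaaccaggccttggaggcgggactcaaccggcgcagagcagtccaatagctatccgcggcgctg
Mcm6, chr1:128359706-128359955, minus strand: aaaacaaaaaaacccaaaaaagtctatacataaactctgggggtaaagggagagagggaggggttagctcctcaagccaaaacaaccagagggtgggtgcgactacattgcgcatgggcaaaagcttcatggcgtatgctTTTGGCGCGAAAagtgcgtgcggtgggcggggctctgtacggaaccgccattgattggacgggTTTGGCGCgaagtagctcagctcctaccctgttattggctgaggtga
Cdc6, chr11:98907901-98908150, plus strand: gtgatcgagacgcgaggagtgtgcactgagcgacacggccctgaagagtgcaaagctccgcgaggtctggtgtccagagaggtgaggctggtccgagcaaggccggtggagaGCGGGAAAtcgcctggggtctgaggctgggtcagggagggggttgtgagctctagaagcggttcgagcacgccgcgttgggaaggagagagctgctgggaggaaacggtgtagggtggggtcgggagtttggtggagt
Mcm2, chr6:88898781-88899030, minus strand: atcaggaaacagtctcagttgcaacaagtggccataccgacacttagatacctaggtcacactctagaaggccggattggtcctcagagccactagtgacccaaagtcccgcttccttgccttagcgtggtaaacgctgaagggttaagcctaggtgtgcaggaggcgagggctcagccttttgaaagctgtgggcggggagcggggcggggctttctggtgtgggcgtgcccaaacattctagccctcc

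Words just downstream of the start are given as short stretches, again with the word in capitals.
Mcm3, chr1:20820277-20820302, minus strand: acttccgtgGCGGGAAAacttgggaa
Mcm3, chr1:20820263-20820283, minus strand: ttgggaagtTTTGGCGCcaag
Mcm7, chr5:138171851-138171876, minus strand: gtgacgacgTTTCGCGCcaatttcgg

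Windows with a word were not limited to members. Of 12935 tested genes with a window, 516, or 3.99%, held such a word. Their median difference was 0.04, and 61% of the 516 were positive, against a median of 0.02 and 54.6% for tested genes whose windows lacked the words. Of the 516 genes, 0 passed in limma. A matching word describes the sequence only, and the absence of a word says nothing about the factor. The 5 members with a word differed by 0.44 (Cdc6), 0.34 (Mcm6), 0.32 (Mcm5), 0.16 (Mcm3) and 0.14 (Mcm7). The 3 without a word differed by 0.46 (Mcm2), 0.24 (Cdc45) and 0.05 (Mcm10), so the values overlapped. The windows were also searched for the shorter sequence CCAAT. It was present in 7 of the 8 members, Mcm2 included, and in 41.4% of the 12935 tested genes.

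The other genes of DNA replication were grouped by role into 5 lists. Of 63 tested, 42 had positive and 21 negative differences, or 66.7% positive against 54.4% of all tested genes. Their median was 0.10, and 0 passed in limma. Limma's unadjusted p was under 0.05 for 3 of the 63, against 3.34% of all tested genes. Of these, Pold2 and Rfc2 were higher and Mcm9 lower on the knockout-labelled arrays. The list of origin recognition and loading genes, which also held the MCM relatives Mcm8 and Mcm9, had a median of 0.01, with 7 of 11 positive. Orc5, a subunit of the origin recognition complex, was at 5.12, 5.77 and 5.94 against 6.17, 6.01, 5.94 and 6.04, a difference of 0.43 (95% confidence interval -0.03 to 0.89). Gmnn, the inhibitor of CDT1, differed by 0.31 (-0.22 to 0.84). Mcm9, which resembles the ring subunits but works with Mcm8 in DNA repair, was at 4.32, 4.44 and 4.2 against 4.13, 4.13, 4.06 and 4.11. All knockout-labelled values of Mcm9 lay below the wild-type-labelled ones, the nearest being 4.13 and 4.2. Labels failed to overlap, in either direction, for 2.45% of all tested genes. The difference of Mcm9 was -0.21 (95% confidence interval -0.42 to -0.01), with limma's adjusted p at 0.971.

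Origin firing genes had a median of -0.03, with 5 of 11 positive. Donson, a helicase assembly factor, was at 3.6, 4.31 and 4.99 against 4.63, 5.45, 4.63 and 4.83, with a difference of 0.59 (95% confidence interval -0.23 to 1.40). Dbf4, the partner of the CDC7 kinase that activates the ring, differed by -0.36 (-0.86 to 0.15). The remaining GINS subunits differed by 0.10 for Gins2, -0.06 for Gins3 and 0.24 for Gins4, beside 0.24 for Gins1. Gins4 was at 6.89, 7.28 and 7.29 against 7.29, 7.37, 7.21 and 7.69, and so also had its lowest value on wild-type-labelled array 1 and its highest on knockout-labelled array 4.

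Polymerase and fork genes had a median of 0.13, with 18 of 22 positive. Pold2, an accessory subunit of DNA polymerase delta, was at 6.33, 6.49 and 6.6 against 6.59, 6.96, 6.9 and 7.32, a difference of 0.47 (95% confidence interval 0.06 to 0.87). Pold1, its catalytic subunit, differed by 0.52 (-0.01 to 1.04), and Rfc2, a subunit of the loader of the PCNA clamp, by 0.42 (0.02 to 0.83). Limma's adjusted p was 0.971 for all 3. The 5 tested genes of nucleotide supply were all positive, with a median of 0.22. Dut differed by 0.30, Tk1 by 0.22 and Rrm2 by 0.23, and each was highest on knockout-labelled array 4.

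The list of regulators of entry into S phase had 7 of 14 positive and a median of 0.03. It mixes genes that promote S phase with repressors such as E2f7, so that split gives no direction for S phase entry. Skp2, a ubiquitin ligase subunit that removes the cell cycle inhibitor p27, was at 4.86, 5.21 and 5.79 against 5.87, 6.34, 5.26 and 6.49, with a difference of 0.70 (95% confidence interval -0.10 to 1.5). E2f7, a repressor of E2F targets, differed by -0.56 (-1.26 to 0.14), and E2f2 by 0.09 (-0.09 to 0.27). None of these passed in limma.

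**Figure D3:**
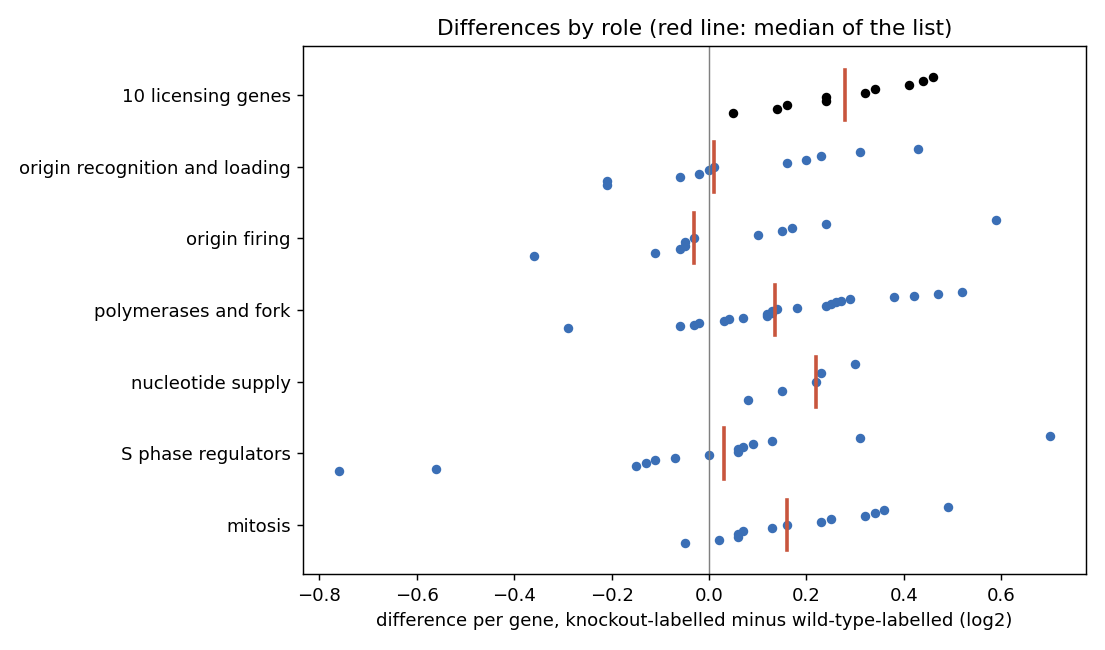
Difference in log2 signal per gene (horizontal axis, knockout-labelled minus wild-type-labelled) for the 10 licensing genes (black) and for other cell cycle lists (blue), a point per tested gene and a red line at each list's median. The licensing genes all lie right of 0 with a median of 0.28, and the origin firing list has a median of -0.03. These lists do not separate the roles fully. Gins1, Cdc45 and Mcm10 are among the 10 genes, and Gins2, Gins3 and Gins4 are in the origin firing list.

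Mitotic genes took a similar course over the arrays. Their list mean was 6.02, 6.7 and 6.52 on the wild-type-labelled arrays and 6.36, 6.84, 6.21 and 6.98 on the knockout-labelled ones, with 12 of 13 genes positive and a median of 0.16. Plk1, a mitotic kinase, was at 5.44, 6.28 and 6.07 against 6.32, 6.72, 5.85 and 6.77, a difference of 0.49 (95% confidence interval -0.18 to 1.15). Bub1b, of the spindle checkpoint, differed by 0.32 and Birc5, of the chromosomal passenger complex, by 0.23, and 0 of the 13 passed in limma.

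Among 14984 named genes outside the lists, Mad2l1 had the profile nearest to the members' average, at a root mean square distance of 0.0613 log2 units over the 7 arrays. Mad2l1 encodes a spindle checkpoint protein. Aaas (0.0729), a nuclear pore gene, Tubg1 (0.0864), which encodes gamma-tubulin, the Y-linked gene Uba1y (0.0893), Cdca8 (0.094), Kyat3 (0.096), Ttll12 (0.0988) and Anln (0.101), which encodes the cytokinesis protein anillin, followed. The median distance of the ranked genes was 0.341. All 8 were lowest on wild-type-labelled array 1, and 6 of them, all but Mad2l1 and Tubg1, were highest on knockout-labelled array 4.

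Markers of cells that the sort was set to remove, and genes induced by tissue dissociation, also differed between arrays. Leukocyte markers averaged 6.2, 5.92 and 5.63 on the wild-type-labelled arrays and 5.73, 5.61, 5.9 and 4.97 on the knockout-labelled arrays. All 10 of 10 were lower on the latter, with a median difference of -0.33. Of these 10, 0 passed in limma and 0 had an unadjusted limma p under 0.05. Lyz2 and Tyrobp, which had the highest signals of the list, were at 7.22 and 6.42 on knockout-labelled array 4, and at 10.15 and 8.05 on wild-type-labelled array 1. Mrc1 and Csf1r, at 5.81 and 4.14 on knockout-labelled array 4, were not low there. Lung epithelium markers averaged 8.49, 8.19 and 7.37 against 8.24, 7.62, 8.3 and 6.77, with 2 of 10 higher and 0 passing in limma. Sftpc was at 10.2 on knockout-labelled array 4 and between 11.86 and 12 on the others, and Scgb1a1 ranged from 8.12 on that array to 9.8 on wild-type-labelled array 1. Nkx2-1, Krt8, Krt18 and Cldn18 were instead lowest on wild-type-labelled array 3, at 5.58, 6.13, 6.76 and 7.11. On knockout-labelled array 4 they were at 5.9, 6.94, 7.15 and 7.63.

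The 10 dissociation stress genes, immediate early and heat shock genes, averaged 8.74, 8.55 and 6.96 against 8.27, 6.9, 9.12 and 6.05. Relative to its own mean, this list was at 0.94, 0.75 and -0.84 against 0.47, -0.90, 1.32 and -1.75, and the licensing genes at -0.47, -0.04 and 0.02 against -0.17, 0.30, -0.15 and 0.49. The stress genes were lowest on knockout-labelled array 4, where the licensing genes were highest. On every array these lists lay on opposite sides of their own means. Wild-type-labelled arrays 2 and 3 were at 0.75 and -0.84 in stress genes and at -0.04 and 0.02 in licensing genes. The leukocyte and lung epithelium lists also lay opposite to the licensing genes on every array. Fibroblast and mural markers averaged between 6.7 and 7.59, with Col1a2 between 9.61 and 10.59 and Acta2 between 7.56 and 8.85. Of 9 erythroid markers, 4 had a 1-symbol probe set and averaged between 3.69 and 4.03, with Slc4a1 between 4.48 and 5.18 and Epor between 4.22 and 4.63. Cdh5 and Pecam1 lay between 11.83 and 11.97 and between 11.03 and 11.21. No defining marker was listed at 0. The part of these other cells and of dissociation in the licensing genes' values was not tested.

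**Figure D4:**
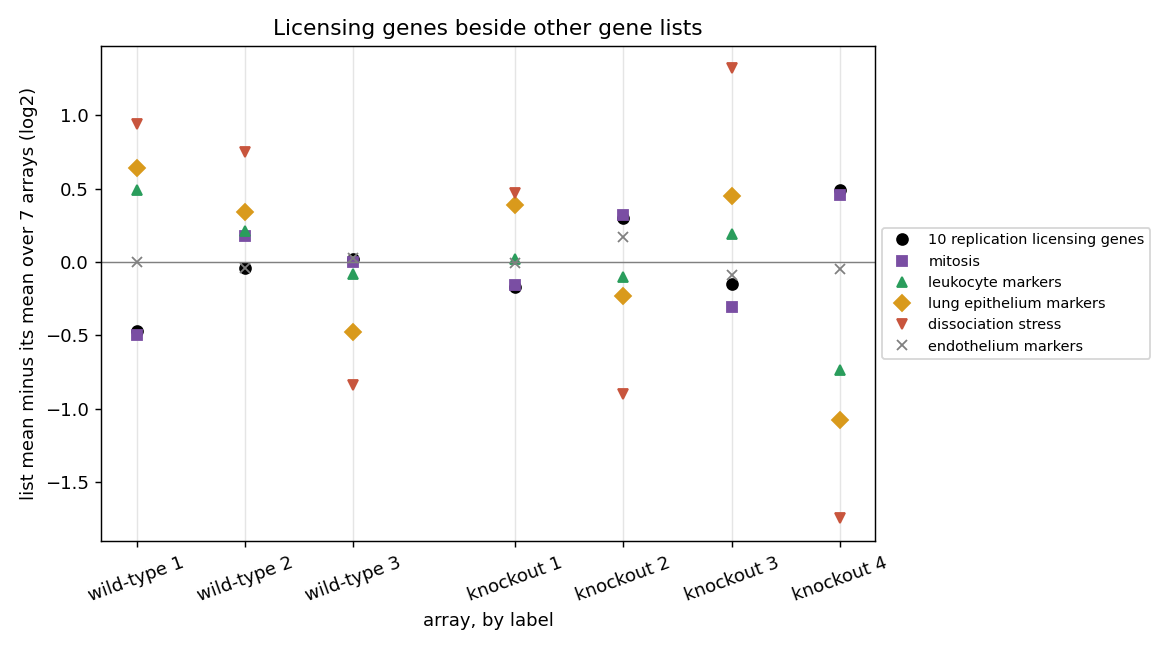
Mean log2 signal of each gene list minus its own mean over the 7 arrays (vertical axis), by array label (horizontal axis). Licensing and mitotic genes lie lowest on wild-type-labelled array 1, at -0.47 and -0.50, and highest on knockout-labelled array 4, at 0.49 and 0.46, where dissociation stress genes lie at -1.75.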

How the data were processed

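RNA of 7 sorted samples (RNA integrity number above 7, amplified, labelled with biotin) was hybridised to Affymetrix arrays. Per the submitters' processing notes, the authors made the deposited values with RMA in Affymetrix Expression Console 1.1; that they are log2 signal was read from the deposited values, 0.32 to 13.7. RMA makes arrays share a distribution and can compress differences of dim genes. Of 41345 probe sets, 23521 had 1 symbol, 1814 had several and 16010 had none listed; names were updated through RefSeq (GRCm38.p6, 99.2% of identifiers found). The array's own build is not given in the sources used here. Per gene the probe set with the highest mean was used, and the dimmest 25% of genes (below 2.98) were left out; all 10 members passed. limma 3.58.1 (lmFit, eBayes, genotype only) in R 4.3.3 was fitted to 16637 genes, two-sided, called at an adjusted p under 0.05, and was tested on simulated data. Named genes were the members, Sash1, the 3 smallest p per replication or mitosis list, the 8 nearest profiles and the 2 genes of highest signal per marker list (a ranking that probe affinity affects). Mcm8, Gins2, Gins3, Mrc1, Csf1r, Nkx2-1, Krt8, Krt18 and Cldn18 were added after their values were known. Members and lists were chosen with earlier results of these data known. Alternatives covered the filter, normalization, moderation, array weights, probe sets, replicate block, threshold and omitted arrays.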

Additional observations from a re-analysis of the deposited data

Results flagged for a closer look

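Tests for a sample apart covered 49 genes and list means on the 4 knockout-labelled arrays, and chance marks about 1 in 20 such groups. None of the 10 licensing genes was marked, but 2 regulators were. E2f7 was at 4.82 on knockout-labelled array 1, while the other 3 lay between 5.76 and 5.8. E2f2 was at 4.46 on the same array and at 4.45 on the other 3, a gap of the last decimal place deposited.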

How the results depend on the processing

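The counts of genes, members and other replication genes that passed in limma were 0 under every alternative run, the threshold of 0.1 included, where 556 genes had an unadjusted p under 0.05 with all arrays, 417 without variance moderation, 225 with the replicate block as fixed terms, 1310 with array weights, 295 without wild-type-labelled array 2, 1314 without wild-type-labelled array 3 and 1779 without both arrays numbered 3. The median member difference of 0.28 was positive throughout, at 0.25 with quantile normalization or median centring, 0.18 with array weights, 0.32 over the 7 members left by a filter on 50% of genes, 0.50 without both arrays numbered 3, and 0.10 to 0.40 with 1 array left out. Over all results, 268 of 270 alternative values were scored as unchanged. A gene's difference was so scored if it kept its direction and side of the threshold. A median was so scored if it moved less than 0.31, the spread of the member mean within labels. That spread exceeds the median of 0.28 and no member passed in any run, so the score is a weak check. The 2 others were for Mcm10, at -0.04 with array weights and -0.06 without wild-type-labelled array 1, and the cause was not tested. The median over all tested genes also changed sign, from 0.02 to -0.02 with median centring, within that spread. Arrays with the same replicate number did not deviate together (correlations of -0.18, -0.20 and -0.55 across genes), so the numbers were not taken to pair samples. With the replicate block as fixed terms the median was 0.14, Mcm2 differed by 0.34 and Cdc45 by 0.01, and as a random effect the median was 0.33. Knockout-labelled array 4 has no partner and adds nothing to the fixed block. Signal over background was not analysed here, and Gins1, Mcm10, Cdc6 and Cdc45 had mean signals below the lowest array median of 5.3.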

Other observations

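Cdkn1a, which encodes the cyclin-dependent kinase inhibitor p21, was chosen after its values were seen. It was at 11.18, 11.07 and 8.76 on wild-type-labelled arrays 1 to 3 and at 9.22, 9.28, 10.71 and 9.08 on knockout-labelled arrays 1 to 4. The 3 highest values were on wild-type-labelled arrays 1 and 2 and knockout-labelled array 3, which also held the 3 highest values of Sash1 and of the dissociation stress list. Its difference between labels was -0.76 (95% confidence interval -2.34 to 0.81), and limma's adjusted p was 0.971.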
